A study of Mus musculus with 9 samples.

Results

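The MHC class II genes and Ciita were followed as 9 listed genes: Ciita, H2-Aa, H2-Ab1, H2-Eb1, Cd74, H2-DMa, H2-DMb1, H2-Oa and H2-Ob. A probe set, the group of short oligonucleotides that gives 1 value on an Affymetrix array, was taken as a member's own if a listed gene was its only symbol in the platform annotation. By this rule 7 genes had 11 own probe sets, out of 12393 genes with such probe sets on the array. H2-DMb1 and H2-Ob had none of their own. They were covered by 3 probe sets that carry a second symbol, 2 annotated to both H2-DMb2 and H2-DMb1 and 1 annotated to both Gm20506 and H2-Ob. These 3 are described as shared probe sets and are assigned to neither gene.

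The RNA came from CD4+CD25+ regulatory T (Treg) cells, T cells that restrain immune responses, from mice on a C57Bl/6 background. There were 3 groups of 3 arrays: fl-CBP/Foxp3cre mice (CBP-deleted), fl-p300/Foxp3cre mice (p300-deleted) and Foxp3cre mice, which are also titled WT (control). By the genotype labels all 3 groups carry a Foxp3cre allele, but the WT titles of the controls do not settle it for them, and effects of that allele and of a deletion could then not be told apart. The deletions are directed to cells that express, or have expressed, Foxp3. Age and sex are not in the labels. The cells were separated with magnets, and other cells that remained in a preparation would keep CBP and p300 unless they had expressed Cre. The series asked whether Foxp3+ cells need CBP and p300, which are related acetyltransferases of histones and other proteins.

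MHC class II molecules present peptides from endocytosed proteins to CD4+ T cells. Their genes are transcribed mainly in B cells, dendritic cells and macrophages, and mouse T cells, unlike activated human T cells, make little of them. CIITA, the protein of Ciita, binds no DNA by itself. It joins a complex of RFX, CREB and NF-Y on class II promoters, where RFX binds the X1 box, CREB the X2 box and NF-Y the Y box, and it recruits CBP and p300. Within the pathway, H2-Aa and H2-Ab1 encode the chains of I-A, and H2-Eb1 encodes the beta chain of I-E. Cd74 encodes the invariant chain, which fills the groove until its remnant is removed by H2-DM, and H2-O restrains H2-DM.

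The promoter letters are shown because the listed genes differ in whether exact core letters of the X1 and Y boxes lie at close spacing. An X box with other letters would be missed, so a gene without a match may still have the boxes. Each sequence is from RefSeq on GRCm38.p6, read 5′ to 3′ on the strand of the gene, and the capitals mark the letters ACNGATG (the core of X1), GATTGG (the core of Y) and, in H2-Aa, TGACG (part of a CREB site) on both strands, which overlap. The windows searched ran from 250 bases before to 50 bases after each start. H2-Eb1 lies at chr17:34305764-34305827 on the plus strand, H2-DMb1 at chr17:34153085-34153149 (plus), H2-DMb2 at chr17:34145114-34145178 (plus), H2-Aa at chr17:34287852-34287912 (minus), H2-Oa at chr17:34092227-34092355 (plus) and H2-Ob at chr17:34238832-34238867 (plus).
H2-Eb1: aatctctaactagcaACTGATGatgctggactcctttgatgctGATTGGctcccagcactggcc
H2-DMb1: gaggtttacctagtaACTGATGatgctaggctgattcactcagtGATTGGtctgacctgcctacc
H2-DMb2: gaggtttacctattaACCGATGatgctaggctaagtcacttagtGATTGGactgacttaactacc
H2-Aa: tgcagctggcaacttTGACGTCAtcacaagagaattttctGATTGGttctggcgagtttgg
H2-Oa: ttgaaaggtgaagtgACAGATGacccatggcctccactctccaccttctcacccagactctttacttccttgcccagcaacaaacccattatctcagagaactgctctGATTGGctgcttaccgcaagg
H2-Ob: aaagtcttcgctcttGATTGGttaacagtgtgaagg

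ACNGATG followed by GATTGG on the same strand, with starts 20 to 50 bases apart, was found in 36 of 32851 promoter windows (0.110%) with both strands searched. H2-Eb1 has the pair with starts 28 bases apart, and H2-DMb1 and H2-DMb2 each have it 29 bases apart. In H2-Oa the cores start 93 bases apart, outside that range, and in H2-Ob only GATTGG was found upstream of the start. H2-Aa holds TGACG 74 and GATTGG 49 bases before the start, and its only ACNGATG lies on the other strand. H2-DMa has 2 windows, 1 with none of these letters and 1 with GATTGG. On its own ACNGATG occurs in 9.85% of all windows, GATTGG in 16.1% and TGACG in 20.8%. A match is a description of the letters in this window and says nothing of whether a factor was bound. Ciita, H2-Ab1 and Cd74 had no entry among the promoters used.

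The arrays gave log2 values summarised by the authors with RMA, and array medians lay between 5.49 and 5.59. Of 11 T cell markers measured, 8 were higher in CBP-deleted (median log2 difference 0.04) and 9 in p300-deleted than in control cells (0.17). Of all 22626 probe sets, 10285 and 10585 were higher in these comparisons. Cd2 and Cd8b1 were called higher in CBP-deleted cells, where 1.26% of all probe sets were. Cd2, Cd3g and Cd4 were called higher in p300-deleted cells, where 1.45% were. Foxp3 was called lower in both, where 1.25% and 1.17% of all probe sets were. When arrays were left out 1 at a time, the CBP-deleted calls of Cd2 and Cd8b1 were each lost without 3 of the 9 arrays. In p300-deleted cells the call of Cd2 was lost without 1, that of Cd4 without 4 and that of Cd3g without 7. Foxp3 read 2.87 ± 0.12 in CBP-deleted, 2.95 ± 0.32 in p300-deleted and 9.60 ± 0.14 in control cells (SD, n = 3 each), and the part of the transcript that its probe set reads is not given. Crebbp, the gene of CBP, read 7.20 ± 0.13 in CBP-deleted, 7.56 ± 0.10 in p300-deleted and 7.53 ± 0.16 in control cells. In CBP-deleted against control cells Crebbp differed by -0.33 on the log2 scale (adjusted p = 0.152). Since the deleted exon is not given, this probe set does not check the deletion, and p300 itself is not analysed here. Probe sets for 18S ribosomal RNA averaged 7.39, 8.0 and 7.85 on CBP-deleted, 7.88, 9.62 and 8.07 on p300-deleted and 5.82, 6.20 and 8.88 on control arrays. Control replicate 3 was the high control in 18S and in the class II level, whereas p300-deleted replicate 2, the highest array in 18S, had the lowest class II level of its group.

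No own probe set of a listed gene changed in any comparison by the test across the array (limma, 22626 probe sets, Benjamini-Hochberg adjusted p at 0.05). In CBP-deleted against control cells 0 of 11 passed, where 2.50% of all probe sets did (1.26% higher and 1.25% lower). In p300-deleted against control cells 0 of 11 passed, with 2.62% of all probe sets called (1.45% higher and 1.17% lower). Between CBP-deleted and p300-deleted cells 0 of 11 passed, with 3.35% called (2.10% higher and 1.25% lower). With rates this low, a count of 0 of 11 is near what the background share gives and is no result about these genes. At an unadjusted p under 0.05, 1 own probe set stood out in CBP-deleted against control cells (18.9% of all), 2 in p300-deleted against control cells (17.3% of all) and 0 between the deletions (16.2% of all).

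**Figure D1:**
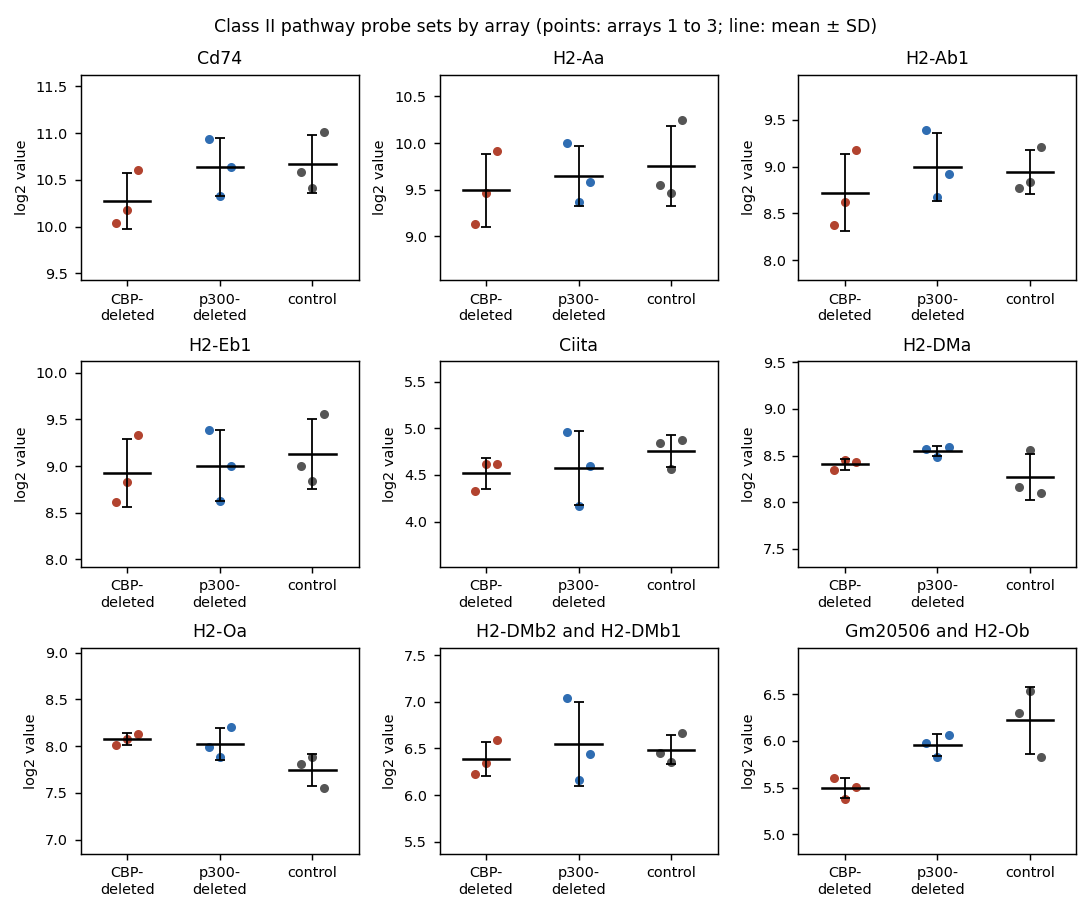
Log2 value of each listed gene (y axis) on every array, for CBP-deleted, p300-deleted and control Treg cells (x axis, points are the 3 arrays of a group, and the line and error bar are their mean and SD). The groups overlap in Ciita, H2-Aa, H2-Ab1, H2-Eb1 and Cd74, and the shared probe set of Gm20506 and H2-Ob lies lower on all CBP-deleted arrays than on the control arrays.

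Ciita, the regulator of the family, gave low signals. Its brighter probe set read 4.33, 4.62 and 4.62 in CBP-deleted, 4.96, 4.17 and 4.60 in p300-deleted and 4.84, 4.56 and 4.87 in control cells. The groups overlapped, and 36.1% to 44.1% of probe sets on an array had lower values, which says nothing of its transcript level relative to other genes. The log2 difference was -0.23 in CBP-deleted against control cells (95% confidence interval -0.65 to 0.18, adjusted p = 0.555) and -0.18 in p300-deleted against control cells (-0.59 to 0.23, adjusted p = 0.688). The other Ciita probe set averaged 4.01 ± 0.13 in CBP-deleted, 4.22 ± 0.27 in p300-deleted and 4.19 ± 0.38 in control cells. Its differences were -0.18 (adjusted p = 0.661) for CBP-deleted and 0.03 for p300-deleted against control cells.

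H2-Aa, the alpha chain of I-A, had 2 probe sets. The brighter read 9.13, 9.46 and 9.91 in CBP-deleted, 10, 9.37 and 9.58 in p300-deleted and 9.55, 9.47 and 10.25 in control cells. The highest array of each group lay above the lowest of the others, so no group stood apart. The difference was -0.26 in CBP-deleted against control cells (SE 0.24, interval -0.79 to 0.27, adjusted p = 0.614) and -0.11 in p300-deleted against control cells (-0.63 to 0.42, adjusted p = 0.870). The other H2-Aa probe set read 8.03, 8.17 and 8.66 in CBP-deleted, 8.80, 8.21 and 8.27 in p300-deleted and 8.27, 8.16 and 8.90 in control cells, with the same arrays high. Its difference in CBP-deleted against control cells was -0.16. For the brighter probe set, the value in CBP-deleted against control cells was -0.01 without control replicate 3, -0.07 without CBP-deleted replicate 1 and -0.46 without CBP-deleted replicate 3.

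H2-Ab1, the beta chain of I-A, had 3 probe sets. The brightest read 8.37, 8.62 and 9.18 in CBP-deleted, 9.39, 8.67 and 8.92 in p300-deleted and 8.77, 8.84 and 9.21 in control cells. These ranges overlapped as well, with the lowest mean in CBP-deleted cells. Its difference was -0.22 in CBP-deleted against control cells (interval -0.70 to 0.27, adjusted p = 0.645) and 0.05 in p300-deleted against control cells (-0.43 to 0.54, adjusted p = 0.935). The middle one read 7.30, 7.58 and 8.13 in CBP-deleted, 8.30, 7.56 and 7.65 in p300-deleted and 7.64, 7.62 and 7.86 in control cells, with CBP-deleted replicate 3 and p300-deleted replicate 1 high. The dimmest ranged from 5.61 to 6.39 in CBP-deleted, 5.96 to 6.56 in p300-deleted and 5.87 to 6.01 in control cells. For the brightest, the value in CBP-deleted against control cells was -0.08 without control replicate 3, -0.04 without CBP-deleted replicate 1 and -0.45 without CBP-deleted replicate 3. The dimmer H2-Ab1 probe sets differed by -0.04 and 0.01 in CBP-deleted and by 0.13 and 0.22 in p300-deleted against control cells.

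H2-Eb1 read 8.62, 8.83 and 9.33 in CBP-deleted, 9.39, 8.63 and 9.0 in p300-deleted and 9.0, 8.84 and 9.56 in control cells. Again the groups overlapped, with differences of -0.20 for CBP-deleted (interval -0.72 to 0.31, adjusted p = 0.694) and -0.12 for p300-deleted against control cells (-0.64 to 0.39, adjusted p = 0.844). Without control replicate 3 these were 0.01 for CBP-deleted and 0.09 for p300-deleted, so the sign of both turned, and without CBP-deleted replicate 3 the CBP-deleted value was -0.41. The direction of H2-Eb1 thus depended on single arrays. The partner chain gene of H2-Eb1, H2-Ea, is not expressed in the haplotype of C57BL/6 mice. Of its 3 probe sets 1 read 5.62 to 6.06 and the others 2.33 to 3.11 on all 9 arrays.

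Cd74, the gene of the invariant chain, read 10.04, 10.18 and 10.61 in CBP-deleted, 10.94, 10.33 and 10.64 in p300-deleted and 10.58, 10.41 and 11.01 in control cells. CBP-deleted replicates 1 and 2 lay below every control array and replicate 3 did not. The difference was -0.39 in CBP-deleted against control cells (SE 0.19, interval -0.81 to 0.03, adjusted p = 0.307) and -0.03 in p300-deleted against control cells (-0.45 to 0.39, adjusted p = 0.961). Without control replicate 3 the value for CBP-deleted cells was -0.22 (adjusted p = 0.552) and that for p300-deleted cells 0.14, and without CBP-deleted replicate 3 the value for CBP-deleted cells was -0.56. Between CBP-deleted and p300-deleted cells Cd74 differed by -0.36 (-0.78 to 0.07, adjusted p = 0.404).

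The peptide editor and its inhibitor had other patterns. H2-DMa, the alpha chain of the H2-DM editor, read 8.34, 8.45 and 8.43 in CBP-deleted, 8.57, 8.48 and 8.59 in p300-deleted and 8.16, 8.56 and 8.10 in control cells. The knockout arrays lay close together, and 1 control array reached their level. The difference in p300-deleted against control cells was 0.28 (interval 0.01 to 0.54, adjusted p = 0.257), and in CBP-deleted against control cells 0.13 (-0.13 to 0.39, adjusted p = 0.604). Without control replicate 2 the p300-deleted difference was 0.42 with an adjusted p of 0.0320, the only setting tried in which an own probe set passed. That call therefore rested on which control arrays were used. Between the deletions all CBP-deleted arrays lay below all p300-deleted arrays, as in 12.9% of all probe sets, at a difference of -0.14 (adjusted p = 0.618).

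H2-Oa, the alpha chain of the H2-O inhibitor, read 8.01, 8.08 and 8.13 in CBP-deleted, 7.99, 7.88 and 8.21 in p300-deleted and 7.81, 7.88 and 7.55 in control cells. All CBP-deleted arrays lay above all control arrays, as did 10.3% of all probe sets. Before rounding, the same held for all p300-deleted arrays (9.26% of all probe sets). The differences from control cells were 0.33 (SE 0.12, interval 0.07 to 0.59, adjusted p = 0.157) in CBP-deleted and 0.28 (0.02 to 0.54, adjusted p = 0.250) in p300-deleted cells, and both missed the threshold. The comparisons share the control arrays. Without control replicate 3 the differences were 0.23 for CBP-deleted and 0.18 for p300-deleted cells.

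The shared probe set of Gm20506 and H2-Ob was the only one of all 14 that passed. It read 5.60, 5.38 and 5.51 in CBP-deleted, 5.98, 5.83 and 6.06 in p300-deleted and 6.30, 6.53 and 5.83 in control cells. The CBP-deleted arrays lay below every control array, as in 12.6% of all probe sets, and below every p300-deleted array, as in 12.9%, while p300-deleted and control arrays overlapped. In CBP-deleted against control cells it fell 1.65-fold (log2 difference -0.72, SE 0.17, interval -1.09 to -0.36, adjusted p = 0.0481). In p300-deleted against control cells the difference was -0.26 (adjusted p = 0.469), and between the deletions it was -0.46 (-0.83 to -0.09, adjusted p = 0.184), so the effects of the deletions were not shown to differ. With only those 2 groups in the fit, the same difference passed (adjusted p = 0.0383). The call was lost when any array other than control replicate 3 was left out, with log2 differences of -0.77 to -0.57 and adjusted p of 0.0661 to 0.158, and without control replicate 3 it was -0.92 (adjusted p = 0.0042).

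The probe sets shared by H2-DMb2 and H2-DMb1 were high on CBP-deleted replicate 3 and p300-deleted replicate 1, as the I-A genes were. The brighter read 6.23, 6.34 and 6.59 in CBP-deleted, 7.04, 6.16 and 6.44 in p300-deleted and 6.45, 6.35 and 6.66 in control cells. The groups overlapped, with differences from control cells of -0.10 for CBP-deleted and 0.06 for p300-deleted cells. The dimmer read 4.57, 4.93 and 5.42 in CBP-deleted, 5.47, 5.12 and 5.14 in p300-deleted and 5.11, 5.24 and 5.07 in control cells, with differences of -0.17 for CBP-deleted and 0.10 for p300-deleted cells.

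Over the 11 own probe sets, 3 were higher and 8 lower in CBP-deleted than in control cells, with a median log2 difference of -0.18 against -0.02 over all probe sets. In p300-deleted against control cells 6 were higher and 5 lower, and the median was 0.03 against -0.01. Between CBP-deleted and p300-deleted cells 1 was higher and 10 were lower, with a median of -0.15 against -0.02. By group means, H2-Aa, H2-Eb1, Cd74 and the brighter Ciita probe set were lowest in CBP-deleted and highest in control cells, while the brightest H2-Ab1 probe set was highest in p300-deleted cells. No neighbours in these orders differed beyond the spread of their arrays. Several of these probe sets read the same gene and moved together, so their counts are not independent. The 95% intervals of the own probe sets reached from -0.81 to 0.59 for CBP-deleted and from -0.64 to 0.67 for p300-deleted against control cells, and no change of a size inside them was established or excluded for these genes.

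**Figure D2:**
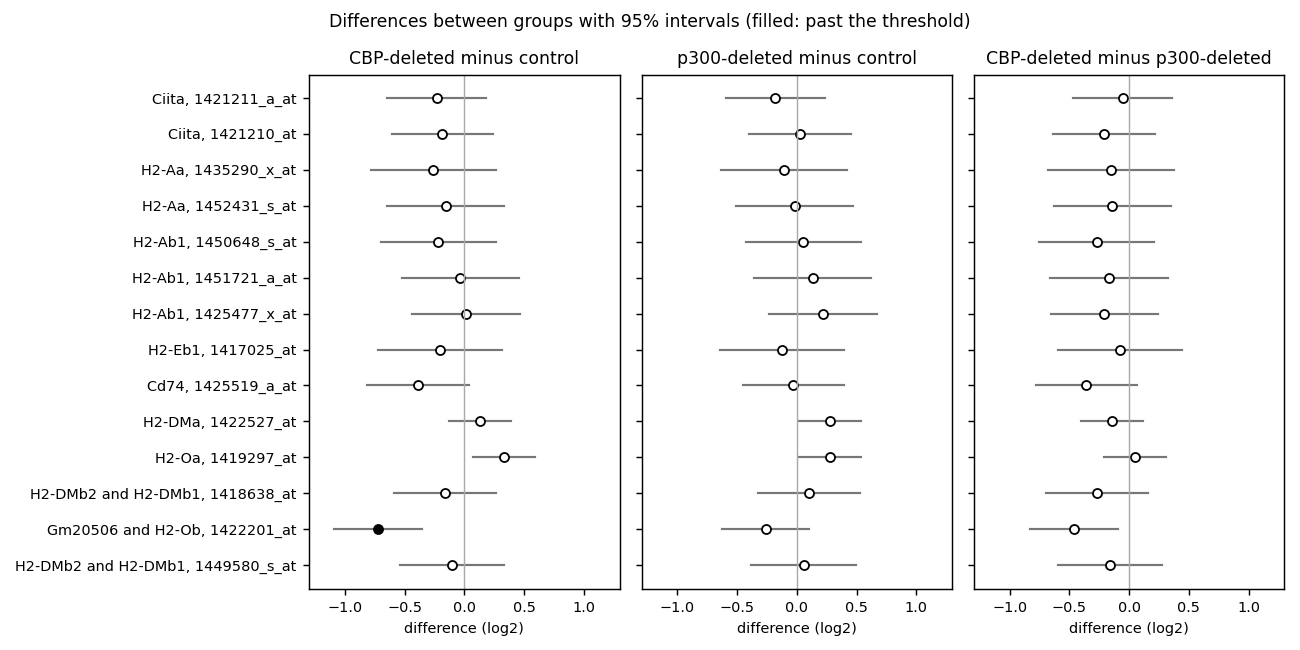
Log2 difference with its 95% confidence interval from limma (x axis) for each probe set of the listed genes (rows), for each deletion against control cells and for CBP-deleted against p300-deleted cells. Most intervals cross 0; the shared Gm20506 and H2-Ob probe set at -0.72 in CBP-deleted against control cells is the only one called after adjustment.

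The classical genes varied widely between replicate arrays. The widest spread over the 3 arrays of a group exceeded the largest difference of group means in each of the 11 own probe sets, as it did in 81.7% of all probe sets, so this count says nothing particular about these genes. For H2-Aa the spread and the difference were 0.78 and 0.26 on the log2 scale, for H2-Ab1 0.81 and 0.27, for H2-Eb1 0.76 and 0.20, and for Cd74 0.61 and 0.39. The within-group SD of H2-Aa exceeded that of 96.0% of all probe sets, that of H2-Eb1 95.7%, that of H2-Ab1 94.7% and that of Cd74 92.3%. H2-DMa and H2-Oa were near the middle, at 50.1% and 45.7%.

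This variation was shared. The mean level of H2-Aa, H2-Ab1, H2-Eb1 and Cd74 was 9.04, 9.27 and 9.76 on the CBP-deleted arrays, 9.93, 9.25 and 9.53 on the p300-deleted arrays and 9.47, 9.39 and 10.01 on the control arrays. CBP-deleted replicate 3, p300-deleted replicate 1 and control replicate 3 were the high arrays of their groups. After each group's mean was subtracted, the 7 probe sets of H2-Aa, H2-Ab1, H2-Eb1 and Cd74 correlated at 0.79 to 1.00 over the 9 arrays (median 0.94 over 21 pairs). These are descriptions: the points share their arrays and their normalization, probe sets of 1 gene read the same transcript, and no test was made.

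Ciita followed the same arrays more loosely, with correlations of 0.27 to 0.81 to these 7 probe sets (median 0.70). The shared H2-DMb2 and H2-DMb1 probe sets correlated with them at 0.59 to 0.93 (median 0.84). H2-Oa, H2-DMa and the shared Gm20506 and H2-Ob probe set did not follow them, at -0.56 to 0.18 (median -0.24), but correlated with each other at 0.66 to 0.78. Over these arrays the probe sets thus formed a set that mostly rose and fell together and a smaller set with another order of arrays. The first set was not uniform. In it Ciita correlated with the shared H2-DMb2 and H2-DMb1 probe sets at 0.09 to 0.92, and these 2 with each other at 0.62. The smaller set rests largely on control replicates 2 and 3. There H2-DMa deviated from its group mean by 0.285 and -0.168, H2-Oa by 0.131 and -0.195, and the shared Gm20506 and H2-Ob probe set by 0.309 and -0.39. Of the genes printed above, H2-Eb1, H2-DMb1 and H2-DMb2 have the exact ACNGATG and GATTGG letters at close spacing, and H2-Aa, H2-Oa and H2-Ob do not. H2-DMa has no such pair either, and H2-Aa belonged to the first set without it. H2-Ab1, Cd74 and Ciita had no promoter entry, and H2-DMb1 and H2-Ob were read only on shared probe sets. Any link between these letters and the sets was not tested.

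**Figure D3:**
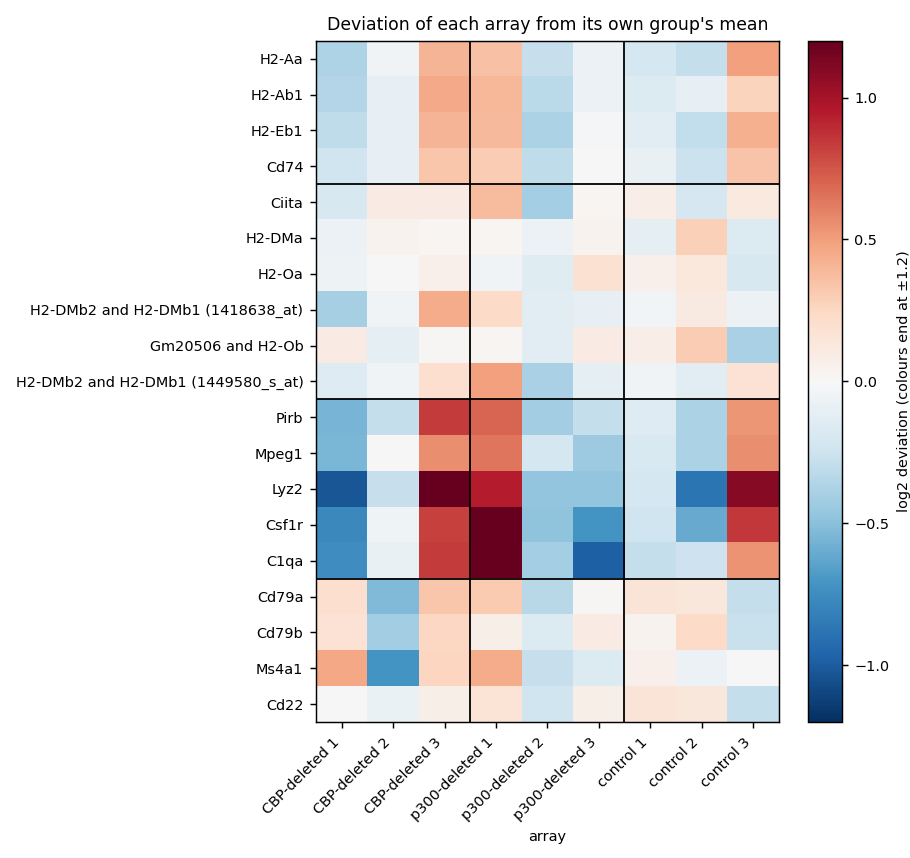
Deviation of each array from its own group's mean on the log2 scale (colour, which ends at the scale limits) for probe sets of the listed genes, Pirb, Mpeg1 and cell type markers (rows) on the 9 arrays (columns). CBP-deleted replicate 3, p300-deleted replicate 1 and control replicate 3 are high for H2-Aa, H2-Ab1, H2-Eb1 and Cd74, whereas H2-Oa and H2-DMa follow another order.

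**Figure D4:**
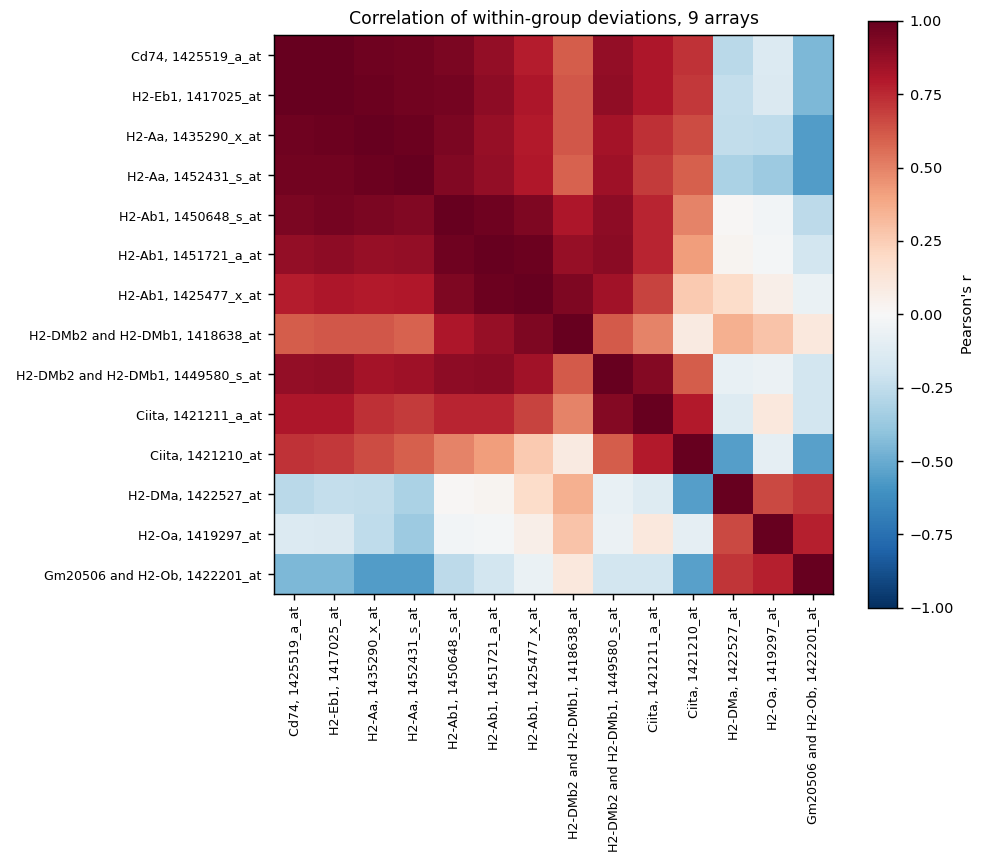
Pearson correlation (colour) of the within-group deviations over 9 arrays between probe sets of the listed genes (rows and columns, the diagonal being 1 by construction). The probe sets of H2-Aa, H2-Ab1, H2-Eb1 and Cd74 form a block at 0.79 to 1.00, and H2-Oa, H2-DMa and the shared Gm20506 and H2-Ob probe set form a separate one at 0.66 to 0.78.

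The genes most like the mean standardised pattern of H2-Aa, H2-Ab1, H2-Eb1 and Cd74 were ranked over the 9 arrays among 1741 genes whose values spanned at least 1 log2 unit. Pirb, which encodes an inhibitory receptor that binds MHC class I, came first (Pearson r 0.94, Spearman rho 0.88). It was followed by Plek, a protein kinase C substrate of blood cells (0.94, 0.93), and Slc15a3, a lysosomal peptide transporter (0.93, 0.90). Next were Mpeg1, a pore-forming protein of macrophages (0.92, 0.73), F13a1, a subunit of coagulation factor XIII (0.91, 0.83), and Anxa1, annexin A1 (0.91, 0.93). Spi1, the transcription factor PU.1 of myeloid and B cells, reached 0.90 and 0.95, and Cd209a, a lectin of dendritic cells, 0.89 and 0.90. Without control replicate 3 and p300-deleted replicate 1, the arrays farthest from the median, r was 0.76 to 0.97 for these 8 genes. In all, 28 of the 1741 genes (1.61%) had r of at least 0.8, and the median r was 0.09. The arrays share their normalization, and r over them is a description.

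Within groups, the mean levels of the monocyte and macrophage list and of the dendritic cell list moved with the class II level. Monocyte and macrophage markers (10 of 11 measured) averaged 4.49, 5.0 and 5.75 on CBP-deleted, 6.29, 5.10 and 4.86 on p300-deleted and 4.48, 4.30 and 4.88 on control arrays. The same high array led in each group. Across groups the levels matched less closely: control replicate 3 had the highest class II level of all arrays, 10.01, and a marker level of 4.88. Within-group deviations of the monocyte and macrophage markers correlated with those of the class II level at 0.88. For dendritic cell markers (9 of 11 measured) this r was 0.83, for B cell markers (11 of 13) 0.28 and for T cell markers (11 of 12) -0.35. The dendritic cell list deviated most on control replicate 3, by 0.54, against -0.29 to 0.17 on the other arrays. On that array Fscn1 of this list read 11.53, against 7.99 and 8.50 on the other control arrays. Among single markers, Lyz2, the lysozyme of myeloid cells, read 5.93, 6.68 and 8.27 in CBP-deleted, 8.56, 7.15 and 7.15 in p300-deleted and 6.12, 5.46 and 7.42 in control cells, and its r was 0.96 within groups and 0.72 over the 9 arrays without the group means removed. Csf1r, the receptor for macrophage colony-stimulating factor, had an r of 0.93 within groups and 0.62 over the 9 arrays. Single markers varied widely: the within-group r was 0.14 to 0.96 in the monocyte and macrophage list, lowest for Itgam, which read 2.81 to 3.28 over all arrays, and -0.53 to 0.93 in the dendritic cell list, lowest for Ccr7. In the B cell list it was -0.12 to 0.72. Their part in the class II levels was not tested. In bulk RNA, fewer cells of a type and less RNA per cell cannot be told apart.

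**Figure D5:**
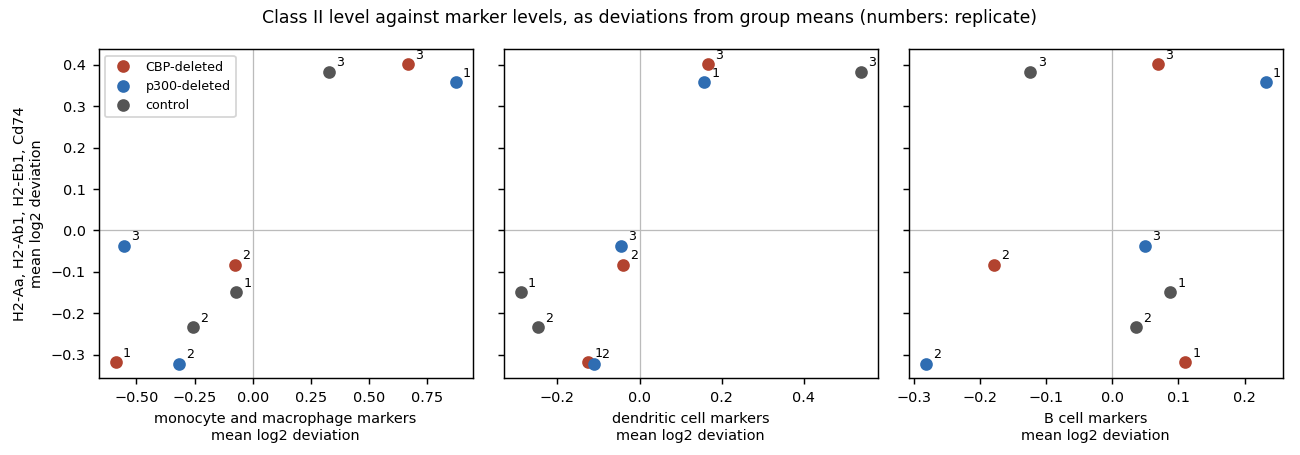
Deviation of the mean class II level (H2-Aa, H2-Ab1, H2-Eb1 and Cd74) from its group mean (y axis, log2) against the same deviation of each marker list (x axis, log2), with 1 point per array and the groups marked by colour. The points rise together for the monocyte and macrophage list (r 0.88) and the dendritic cell list (r 0.83), and less for the B cell list (r 0.28).

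No monocyte and macrophage marker passed in either comparison with control cells, although 9 of 10 were higher in CBP-deleted cells (median log2 difference 0.55) and 10 of 10 in p300-deleted cells (0.96). Of all 22626 probe sets, 10285 and 10585 were higher. These markers were read on the same arrays, and their counts are not independent. The dendritic cell list had 0 calls in these comparisons, with medians of -0.02 for CBP-deleted and 0.04 for p300-deleted cells. The B cell list ranged from 5.68 to 5.97 on CBP-deleted, 5.88 to 6.40 on p300-deleted and 6.17 to 6.38 on control arrays. In CBP-deleted against control cells 3 of its 11 measured genes fell and 0 rose, where 1.25% of all probe sets were called lower. Cd79a, a chain of the B cell receptor complex, differed by -1.03 (adjusted p = 0.0436), Cd79b, its partner, by -0.84 (adjusted p = 0.0367), and Ighm by -0.25 (adjusted p = 0.0431). For Ighm the mean of its probe sets gave 1.01, the opposite direction (adjusted p = 0.0477). All 3 calls held without control replicate 3 and were lost without any 1 of the other arrays (adjusted p 0.0521 to 0.141 for Cd79a, 0.0535 to 0.120 for Cd79b and 0.0623 to 0.162 for Ighm). In p300-deleted against control cells 1 of the 11 rose, where 1.45% of all probe sets were called higher. It was Ighm, by 0.33 (adjusted p = 0.0164), and that call was lost without p300-deleted replicate 1 or 2 or control replicate 1 (adjusted p 0.0639 to 0.0701). The shared Gm20506 and H2-Ob probe set, lower in the same comparison, had within-group correlations of 0.57 with the B cell list, -0.76 with the dendritic cell list and -0.31 with the monocyte and macrophage list. The part of B cell transcripts in its difference was not tested.

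Of 9 genes for factors that bind class II promoters, 8 were measured and 0 passed in any comparison, with median log2 differences of -0.07 for CBP-deleted and -0.04 for p300-deleted against control cells. Rfxank, a subunit of RFX, read 6.83, 7.08 and 7.11 in CBP-deleted, 7.40, 7.14 and 7.15 in p300-deleted and 7.29, 7.70 and 7.18 in control cells. Its difference of -0.39 in CBP-deleted against control cells did not pass (adjusted p = 0.187). Rfx5, another RFX subunit, differed by 0.06 in CBP-deleted and 0.26 in p300-deleted against control cells. Among the 8 acetyltransferases and deacetylases 0 passed in any comparison, with medians of -0.09 in CBP-deleted and 0.09 in p300-deleted against control cells and -0.15 between the deletions.

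Of 15 genes known to induce or repress Ciita, 14 were measured, and the median differences were -0.10 for CBP-deleted and -0.01 for p300-deleted against control cells. In p300-deleted against control cells 1 was called higher, with 1.45% of all probe sets, and between the deletions 1, with 2.10%. Single calls like these are no result about a list. Usf1, which binds a Ciita promoter, read 7.91, 7.88 and 7.84 in p300-deleted and 7.31, 7.21 and 7.64 in control cells. All p300-deleted arrays lay above the controls, and Usf1 rose by 0.49 on the log2 scale (SE 0.11, adjusted p = 0.0473). The call was lost without any 1 array except control replicate 3 (adjusted p 0.0752 to 0.175 without the others). Without control replicate 3 Usf1 also passed in CBP-deleted against control cells, at 0.48 (adjusted p = 0.0136). Ifngr1, the ligand-binding chain of the interferon gamma receptor that induces Ciita, read 9.76, 9.83 and 9.74 in CBP-deleted and 9.09, 9.17 and 9.27 in p300-deleted cells. It was higher in CBP-deleted cells by 0.59 (SE 0.12, adjusted p = 0.0246), a call lost without any 1 of these 6 arrays (adjusted p 0.0506 to 0.118). Spi1, which induces Ciita in myeloid cells and ranked among the 8 genes above, had group means of 5.67 in CBP-deleted, 5.74 in p300-deleted and 5.92 in control cells.

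Genes of class II peptide loading and turnover were measured for 11 of 14, and 0 passed in any comparison, with medians of 0.00 in CBP-deleted and 0.03 in p300-deleted against control cells. Ctsl and Ctsd, lysosomal proteases, differed by 0.57 (adjusted p = 0.0895) and -0.48 (adjusted p = 0.104) in CBP-deleted against control cells. Ctsh and Ifi30, a protease and a thiol reductase of the lysosome, followed the class II level within groups at r 0.91 and 0.89. Over the 11 genes this r ranged from -0.30 for Ctsd to 0.91 for Ctsz. Other genes of the class II region were measured for 4 of 7 and none passed (limma, adjusted over all probe sets). Of these Brd2, a reader of acetylated histones, differed by -0.64 (adjusted p = 0.120) in CBP-deleted against control cells, and H2-Ke6 by -0.32 (adjusted p = 0.205).

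MHC class I presentation, measured for 15 of 18 genes, had median differences of -0.02 in CBP-deleted and 0.02 in p300-deleted against control cells. Only Erap1, which trims peptides for class I, passed, in CBP-deleted against control cells, where 1.26% of all probe sets were called higher. It read 8.47, 8.47 and 8.52 in CBP-deleted and 8.15, 8.08 and 8.11 in control cells, a rise of 0.37 (adjusted p = 0.0380). That call was lost when any CBP-deleted or p300-deleted array or control replicate 1 was left out (adjusted p 0.0569 to 0.156).

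All 8 costimulation genes of antigen-presenting cells were measured. In p300-deleted against control cells 1 was called higher, with 1.45% of all probe sets. In CBP-deleted against control cells 1 was called lower, with 1.25% of all probe sets. Cd86, a ligand of CD28 and CTLA4, read 7.73, 7.75 and 7.53 in p300-deleted and 6.80, 7.14 and 6.85 in control cells and rose by 0.74 (adjusted p = 0.0163). Icam1, an adhesion molecule, read 7.87, 7.87 and 8.10 in CBP-deleted and 8.57, 8.41 and 8.74 in control cells and fell by 0.63 (adjusted p = 0.0367). The Cd86 call was lost without p300-deleted replicate 1 or 2 or control replicate 1 (adjusted p 0.0587 to 0.0917). The Icam1 call was lost without any CBP-deleted array, p300-deleted replicate 2 or control replicate 1 (adjusted p 0.0623 to 0.135). The other 6 genes of the list passed in no comparison.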

How the data were processed

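The deposited values are log2 probe set values on 9 arrays, summarised by the authors with RMA, per the submitters' processing notes; version and settings are not given in the sources used here. They were used as deposited. Of 22690 probe sets, 64 controls were set aside and 22626 tested; 20380 carry a single symbol, 691 several and 1555 none in the annotation used. For the lists, the probe set with the highest mean stood for a gene. Symbols were matched to RefSeq (GRCm38.p6; 12369 of 12393 genes).

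Comparisons used limma 3.58.1 under R 4.3.3, with a mean for each group, 9 arrays and 6 residual degrees of freedom. Tests used eBayes with trend and were two-sided, with Benjamini-Hochberg over all probe sets at 0.05. On simulated data the procedure recovered 29.4% to 31.8% of changes of 0.5 on the log2 scale. It recovered 92.6% to 96.2% of changes of 1. The changed probe sets were drawn from the whole array, and no rate was worked out for the listed genes. With 3 arrays against 3, the smallest p of an exact permutation test is 0.1. The labels call the samples independent without saying what separates them, so p-values measure the spread between these samples. Arrays have no depth; their number limits the precision.

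The members and lists were chosen with earlier results of these data known. Named were all member probe sets, up to 4 called genes of a list or else up to 2 by value, and the 8 genes most like the class II pattern; Ctsh, Ifi30, Lyz2 and Csf1r were chosen after their values were seen. Alternatives were dim probe sets left out (under the 25th percentile), 1 probe set or the mean of the probe sets of a gene, no trend, only the 2 groups compared, array median subtracted, quantile normalization again, a replicate block, and each array left out.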

Additional observations from a re-analysis of the deposited data

Results flagged for a closer look

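The effects of the deletions were tested against each other by the difference between CBP-deleted and p300-deleted cells in the limma fit. By this test 3 genes of the lists differed, and 3.35% of all probe sets did. They were 1 of 14 measured Ciita inducers and repressors, 1 of 11 B cell markers and 1 of 11 T cell markers. The other lists had no call, and single calls at this background share are no result about a list. Ifngr1 was higher in CBP-deleted cells by 0.59 on the log2 scale (adjusted p = 0.0246), with all 3 CBP-deleted arrays above all 3 p300-deleted arrays. Ighm was lower in CBP-deleted cells, with a difference of -0.58 (adjusted p = 0.00165). Cd5, a T cell surface receptor, differed by -0.46 (adjusted p = 0.0137), a call lost without CBP-deleted replicate 2 or 3 or p300-deleted replicate 1 or 2 (adjusted p 0.0642 to 0.0757). The Ifngr1 call was lost without any 1 of the 6 arrays compared (0.0506 to 0.118). No probe set of the MHC class II genes or Ciita differed between the deletions by this test. No outlier test was applied to groups of 3 arrays.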

How the results depend on the processing

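The count of own probe sets called stayed at 0 in each comparison under the alternatives run, except for H2-DMa in p300-deleted against control cells without control replicate 2; leaving out 1 array gave 0 to 0, 0 to 1 and 0 to 0. The count over all probe sets was less stable. Leaving out 1 array gave 85 to 1624 for CBP-deleted against control cells, 74 to 1377 for p300-deleted against control cells and 134 to 1270 between the deletions, with the highest of the comparisons with control cells without control replicate 3. With only the 2 groups compared the counts were 193, 130 and 1733, with the replicate block 262 and 278 against control cells, and with the mean of the probe sets of a gene 356 in p300-deleted against control cells. The lists related to class II had 2, 2 and 1 of 68 genes called, where 2.50%, 2.62% and 3.35% of all probe sets were. For these lists, leaving out 1 array gave 0 to 8, 0 to 5 and 0 to 4. The other counts were, for CBP-deleted against control cells, 4 with the mean of the probe sets, 0 with only the 2 groups, 1 with the array median subtracted and 0 with the replicate block. For p300-deleted against control cells they were 1 with no trend, 0 with only the 2 groups, and 1 each with the median subtracted, quantile normalization and the replicate block. Between the deletions they were 3 each without dim probe sets, with 1 probe set a gene and with the mean of the probe sets, 7 with only the 2 groups, and 2 each with quantile normalization and the replicate block. Ighm in CBP-deleted against control cells turned to 1.01 with the mean of its probe sets. The call of the shared Gm20506 and H2-Ob probe set was lost in 11 of 15 alternatives: without 8 of the 9 arrays, with no trend (adjusted p = 0.0508), with the replicate block (0.0849) and with only the 2 groups (0.107). Over all 15 the adjusted p was 0.0042 to 0.158. Same-numbered arrays correlated at -0.22 to 0.26 in their deviations and differently numbered arrays at -0.23 to 0.21. Deviations within a group of 3 arrays are tied to each other, so this cannot settle whether same-numbered arrays were handled together. The cause of these changes was not tested.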
